A study of Mus musculus with 13 samples.

Results

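Retinoic acid is a small lipid signal that cells make from vitamin A. Retinol enters the cell, is oxidised to retinal and then to retinoic acid, is carried by small binding proteins, and switches genes on or off through the nuclear receptors RARα, RARβ and RARγ, which pair with RXR receptors on DNA. The signal is switched off by CYP26 enzymes, and several genes of the pathway are themselves retinoic acid targets, so the pathway feeds back on itself. In mouse embryonic stem cells (mESCs) retinoic acid is a classical inducer of differentiation.

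The 9 genes described here span that pathway. Among them were the receptors Rara, Rarb and Rarg, the binding proteins Crabp1 and Crabp2, and the clearance enzyme Cyp26a1. The others were the uptake gene Stra6, the synthesis gene Aldh1a2, and Dhrs3, whose enzyme turns retinal back into retinol. All 9 were chosen by gene symbol, and each had 1 row among the 25965 gene rows measured by RNA-seq. The 13 libraries came from female mESCs with an FVB/NJ mother and a CAST/EiJ father, expanded in 2i medium and then weaned into DME HiHi serum medium. Day0 was 1 undifferentiated library without a hairpin, and on each of days 4, 5, 6 and 7 there was 1 library with a nonsilencing hairpin (Nons), 1 with the hairpin Smarcc1.6 and 1 with the hairpin Smarcc1.7. Both Smarcc1 hairpins target a core subunit of the BAF chromatin remodelling complex; in all 3 groups the shRNA was delivered by virus on day 2, followed by puromycin from day 3. The labels name a cell line for every library and no separate cultures, so the 4 days stood in for replicates, p-values measure the spread between these libraries only, and every comparison of a hairpin used the same 4 Nons libraries.

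Values are log2 CPM, reads per 1000000 mapped reads on a log2 scale, so a difference of 1.00 is 2-fold. Depth ranged from 13993440 to 63548092 mapped reads, and 3 reads corresponded to a log2 CPM between -4.40 and -2.22. In Day0 and the 3 day 6 libraries 85.3% to 86.5% of mapped reads fell in genes, against 91.6% to 92.6% in the other 9, and ribosomal protein genes took 2.02% to 2.54% against 4.60% to 7.43%. Levels on day 6 were therefore compared within the day, and called knockdown differences and trends are also given without it. Smarcc1 itself stood at 9.10, 8.87, 8.28 and 7.89 log2 CPM in Nons on days 4 to 7, at 7.42, 7.40, 7.28 and 7.28 with Smarcc1.6, and at 7.96, 7.78, 7.17 and 7.51 with Smarcc1.7. It was lower by 1.06 ± 0.14 (SE) on the log2 scale in the 8 knockdown libraries (limma, adjusted p = 0.00232), also by 1.06 without day 6 (adjusted p = 0.0252). The gap to Nons was smallest on day 7. It narrowed by 0.30 ± 0.08 (SE) per day, which missed the threshold of 0.05 (limma, adjusted p = 0.0508). The stem cell label was checked against 7 pluripotency markers, which summed to 4325 CPM in Day0 and to between 1089 and 2537 CPM on days 4 to 7.

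RAR and RXR bind a pair of short half-sites read in the same direction, and the promoters of Rarb and Cyp26a1, both textbook targets of the receptors, are shown because they held such a pair. A half-site was AGGTCA, the consensus, or else AGTTCA as found in both promoters, GGTTCA as found in that of Rarb, or, as a further variant, GGGTCA. Direct repeats of these spaced by 1, 2 or 5 bases were searched on both strands in RefSeq promoter windows (GRCm38.p6) from 250 bases before to 50 bases after each start. Windows matched 8 of the 9 genes, with Crabp2 unmatched, and gave 17 windows in all. A repeat spaced by 5 bases was present in the windows of Rarb and Cyp26a1. It was present in 0.0974% of all 32851 windows, a share that describes how rare these letters are and is no test, since the forms of the half-site were taken with these promoters in view. Repeats spaced by 1 or 2 bases, which 0.222% and 0.268% of all windows held, were in none of the 17. The last 100 bases before the annotated start are printed on the gene's strand, with the half-sites of the repeat in capitals.
Rarb, minus strand, chr14:16575477-16575576: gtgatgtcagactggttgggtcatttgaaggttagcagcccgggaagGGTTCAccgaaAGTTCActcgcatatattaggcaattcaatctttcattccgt
Cyp26a1, plus strand, chr19:37697708-37697807: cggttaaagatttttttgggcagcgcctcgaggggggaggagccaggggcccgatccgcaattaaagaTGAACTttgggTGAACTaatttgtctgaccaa
In Rarb the repeat lay 53 to 37 bases before the start and in the direction of the gene. In Cyp26a1 it lay 32 to 16 bases before the start on the opposite strand, so the capitals read as the reverse complement of AGTTCA. A match describes these letters only, and receptor binding was not measured.

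**Figure D1:**
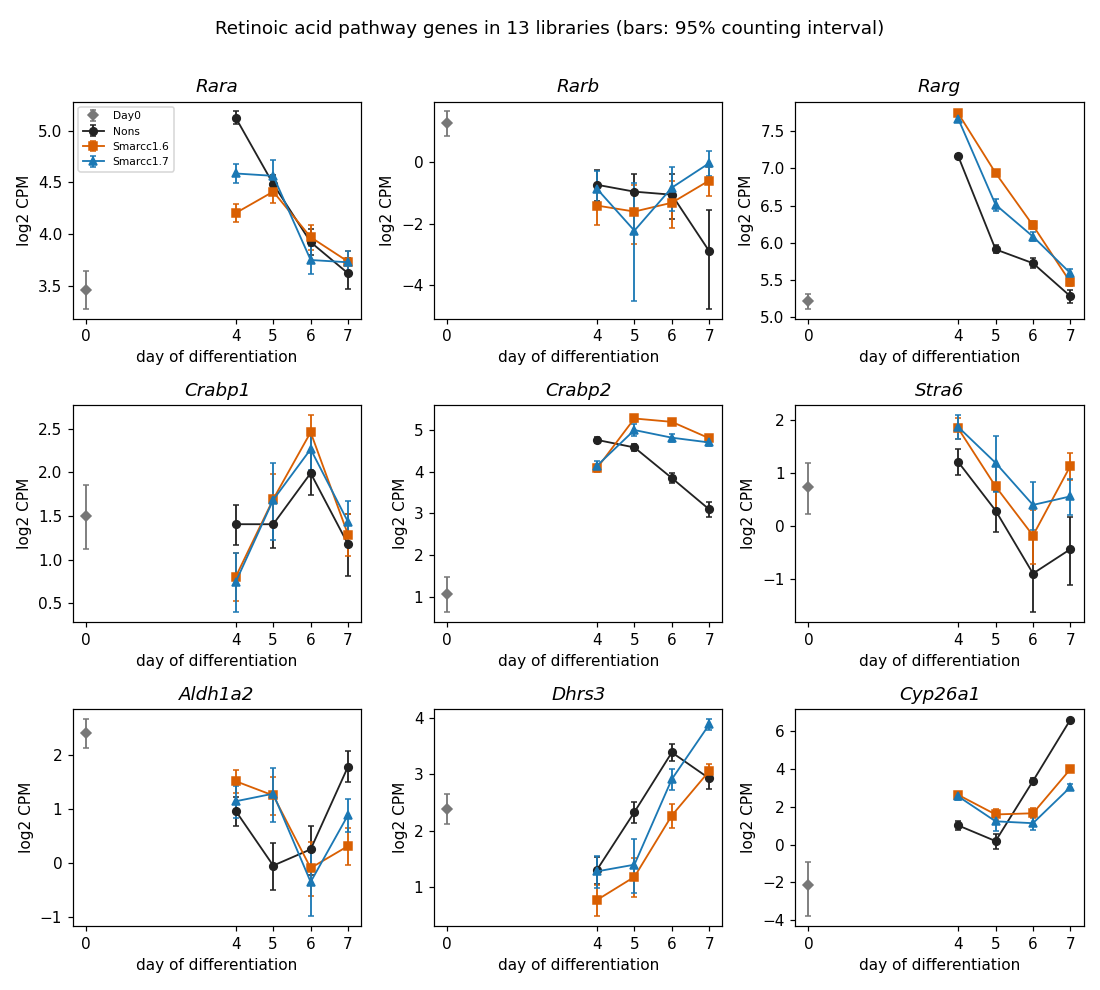
Level of each gene (vertical axis, log2 CPM) by day of differentiation (horizontal axis) in Day0 (grey diamond), Nons (black circles), Smarcc1.6 (orange squares) and Smarcc1.7 (blue triangles), 1 library per point, with bars for the 95% Poisson counting interval. Cyp26a1 in Nons climbs from 1.02 on day 4 to 6.62 on day 7 while both hairpin lines stay at or below 4.01, and Crabp2 separates the other way.

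The question of the knockdown comparison was whether depletion of Smarcc1 altered the level of these genes at the same day of differentiation. Rarg and Stra6 were higher in the knockdown over the whole course. Crabp2 and Cyp26a1 differed from Nons in a way that depended on the day, Crabp2 ending higher and Cyp26a1 ending lower. The remaining genes passed no test of the knockdown. In all, 2 of the 8 genes that could be tested were called higher and 0 lower, where 11.6% of the 13406 genes tested were called in either direction. The median difference of these 8 was 0.03 and that of all genes tested -0.01. Rarb was the gene left out, because its mean log2 CPM over days 4 to 7, -1.20, was under the minimum of 0. In bulk RNA, fewer cells expressing a gene and less RNA per cell cannot be told apart.

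Among the receptors, Rarg was the most abundant in every library, also per kilobase of exon. It encodes RARγ, a receptor form that embryonic stem cells express. In Nons it stood at 7.17, 5.91, 5.73 and 5.28 log2 CPM on days 4, 5, 6 and 7. With Smarcc1.6 the levels were 7.74, 6.94, 6.23 and 5.47, and with Smarcc1.7 they were 7.67, 6.51, 6.08 and 5.59. Both hairpins were above Nons on every day, by the most on day 5 (2.04-fold and 1.52-fold) and by the least on day 7 (1.14-fold and 1.24-fold). Across days the groups overlapped, since day accounted for more of the range than the hairpins. Rarg was 0.51 ± 0.10 (SE) higher on the log2 scale in the knockdown, or 1.42-fold (limma, adjusted p = 0.00784, higher in 8 of 8 same-day comparisons). Without the day 6 libraries the difference was 0.53 with an adjusted p of 0.0517.

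Rara encodes RARα, the most widely expressed of the receptors. Its Nons levels were 5.12, 4.48, 3.92 and 3.62 log2 CPM on days 4 to 7. The Smarcc1.6 levels were 4.20, 4.41, 3.97 and 3.73, and the Smarcc1.7 levels were 4.59, 4.56, 3.75 and 3.73. On day 4 the hairpins differed from Nons by -0.92 and -0.54, and on days 5 to 7 the differences lay between -0.17 and 0.11. The knockdown difference was -0.17 ± 0.13 (SE), with an adjusted p of 0.431 and a 95% interval of -0.45 to 0.11.

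Rarb encodes RARβ, whose own promoter carries the repeat printed above and which is a standard readout of retinoic acid. It was the scarcest of the 9 genes. Day0 had 54 reads, a log2 CPM of 1.28, which was above all 12 later libraries. On the linear scale the Nons levels were 0.604, 0.517, 0.483 and 0.135 CPM on days 4 to 7, the last from 4 reads. With Smarcc1.6 they were 0.378, 0.330, 0.403 and 0.665 CPM, and with Smarcc1.7 they were 0.551, 0.214, 0.566 and 0.985 CPM, with 3 reads on day 5. On day 7 the hairpin libraries held 39 and 50 reads, 4.93-fold and 7.30-fold the CPM of Nons, while on days 4 to 6 the counting intervals overlapped. Tested among all 25965 genes without a minimum level, the knockdown difference was 0.30 ± 0.49 (SE, adjusted p = 0.851), and its change with day was 0.99 per day (adjusted p = 0.214). At these read numbers a difference under several-fold was not detectable on a single day.

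**Figure D2:**
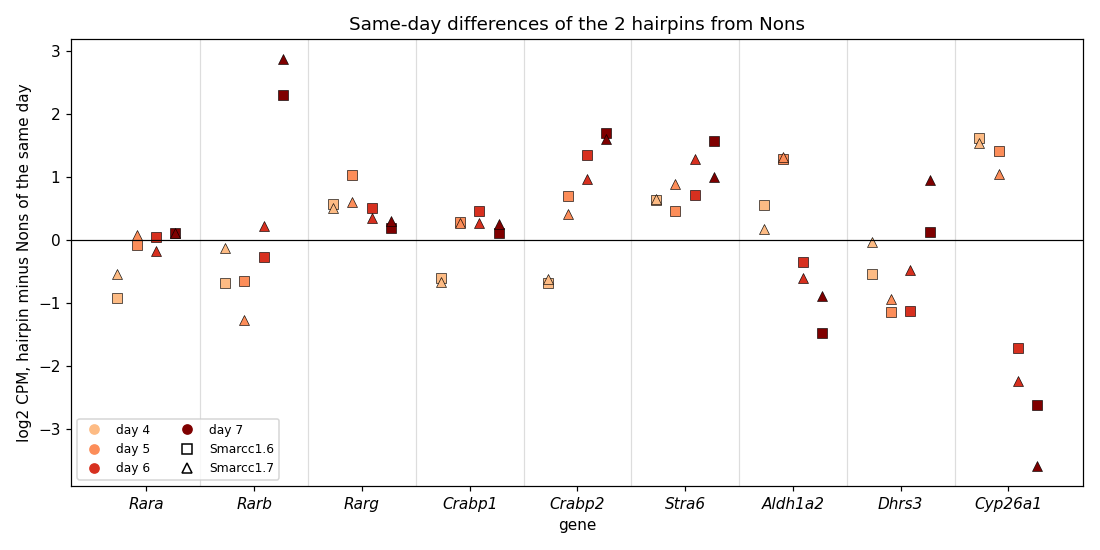
Difference of each hairpin library from the Nons library of the same day (vertical axis, log2 CPM) for the 9 genes (horizontal axis), with squares for Smarcc1.6, triangles for Smarcc1.7 and darker red for later days. All 8 points of Rarg and of Stra6 lie above 0, whereas those of Cyp26a1 run from 1.62 on day 4 down to -3.57 on day 7 and those of Crabp2 from -0.68 up to 1.703.

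Crabp2 encodes the binding protein that hands retinoic acid to the receptors in the nucleus. It had 47 reads in Day0, a log2 CPM of 1.08, the lowest of its 13 values. In Nons it was highest on day 4 and then declined, at 4.76, 4.58, 3.85 and 3.10. With Smarcc1.6 it read 4.08, 5.27, 5.19 and 4.80, and with Smarcc1.7 it read 4.14, 5.00, 4.81 and 4.70. Both hairpins were thus below Nons on day 4 and above it on days 5 to 7, and on day 7 the gap was 3.26-fold and 3.04-fold. Averaged over days the difference, 0.68 ± 0.26 (SE), missed the threshold (adjusted p = 0.116). Leaving out day 4 raised it to 1.12 with an adjusted p of 0.00424, and leaving out Nons day 4 alone gave the same difference with an adjusted p of 0.00183. These were the only 2 of 25 alternative settings in which the average was called. Both take out the comparison on day 4, the day with the opposite sign, so they lend the average no support. The trend was called: the knockdown difference grew by 0.75 ± 0.09 (SE) on the log2 scale per day (limma, adjusted p = 0.00143), and by 0.74 per day without day 6 (adjusted p = 0.00671). The neural marker Sox1 had a trend of the same sign, 1.61 per day (limma on all 25965 genes without a minimum level, adjusted p = 0.00286). Sox1 was the only 1 of the 4 tested neural markers with a called trend. Those of Nes and Pax6 were 0.31 and 0.22 per day, and that of Tubb3 ran the other way at -0.19. The part of neural cells in the level of Crabp2 was not tested.

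Crabp1, the other cellular binding protein, is linked to the handling and breakdown of retinoic acid in the cytoplasm. Its Nons levels were 1.41, 1.41, 1.99 and 1.18 log2 CPM. The Smarcc1.6 levels were 0.80, 1.69, 2.46 and 1.29 and the Smarcc1.7 levels were 0.75, 1.69, 2.27 and 1.43. On day 4 both hairpins were below Nons and on the later days both were above it, the same order as for Crabp2 with smaller gaps. No test passed, with a knockdown difference of 0.05 ± 0.17 (SE, adjusted p = 0.880) and a trend of 0.25 per day (adjusted p = 0.372).

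Stra6 encodes the membrane receptor that takes up retinol from its carrier in blood and serum, and it is also induced by retinoic acid. It was scarce, with 19 to 228 reads per library. In Nons it stood at 1.21, 0.30, -0.89 and -0.43 log2 CPM on days 4 to 7. With Smarcc1.6 it stood at 1.84, 0.75, -0.17 and 1.14, and with Smarcc1.7 at 1.87, 1.19, 0.40 and 0.56. Both hairpins lay above Nons on every day, from 1.37-fold (Smarcc1.6, day 5) to 2.97-fold (Smarcc1.6, day 7). The knockdown difference was 0.90 ± 0.21 (SE), or 1.87-fold (limma, adjusted p = 0.0189, higher in 8 of 8). The call depended on few libraries: the adjusted p was 0.0651 without day 5, 0.0840 without day 6, 0.0704 without Nons day 6 and 0.0504 without Nons day 7. No gene overlapping Stra6 in the table exceeded a mean log2 CPM of -2.55 over days 4 to 7.

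Aldh1a2 encodes the main retinaldehyde dehydrogenase of the early embryo, the enzyme that makes retinoic acid from retinal. Day0 had the highest value, 2.40 log2 CPM. The Nons levels were 0.96, -0.04, 0.25 and 1.78, those of Smarcc1.6 were 1.51, 1.25, -0.09 and 0.32, and those of Smarcc1.7 were 1.14, 1.28, -0.35 and 0.89. Both hairpins were above Nons on days 4 and 5 and below it on days 6 and 7. The average difference was accordingly 0.01 ± 0.32 (SE, adjusted p = 0.993), and its trend of -0.64 ± 0.23 (SE) per day did not pass (adjusted p = 0.154). That trend was called in 1 of 21 alternative settings, without Nons day 4, at -1.24 per day (adjusted p = 0.0409). Over all 21 it ran from -1.24 to -0.42 per day.

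Dhrs3 encodes a reductase that turns retinal back into retinol and so limits how much retinoic acid is made; it too is induced by retinoic acid. In Nons it stood at 1.31, 2.33, 3.39 and 2.93 log2 CPM. With Smarcc1.6 the levels were 0.78, 1.19, 2.27 and 3.06 and with Smarcc1.7 they were 1.28, 1.40, 2.92 and 3.88. The hairpin values were below Nons on days 4 to 6 and above it on day 7. The knockdown difference of -0.39 ± 0.25 (SE) did not pass (adjusted p = 0.344), nor did its trend of 0.27 per day (adjusted p = 0.460).

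Cyp26a1, the enzyme that oxidises retinoic acid for disposal and one of its most responsive targets, varied the most of the 9 genes, with an SD of 2.08 log2 units over 13 libraries. Day0 had 5 reads, a log2 CPM of -2.16. The Nons levels were 1.02, 0.19, 3.37 and 6.62 on days 4, 5, 6 and 7, the last from 2928 reads. With Smarcc1.6 the levels were 2.64, 1.602, 1.66 and 4.01, and with Smarcc1.7 they were 2.56, 1.24, 1.14 and 3.05. Both hairpins were above Nons on day 4 (3.07-fold and 2.91-fold) and on day 5 (2.66-fold and 2.07-fold). Both were below it on day 6 (3.27-fold and 4.71-fold) and on day 7 (6.15-fold and 11.9-fold). From day 4 to day 7 Cyp26a1 gained 48.6-fold in Nons, 2.58-fold with Smarcc1.6 and 1.40-fold with Smarcc1.7.

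Because the sign changed, the average over days, -0.57 ± 0.61 (SE), did not pass for Cyp26a1 (adjusted p = 0.595) and turned to 0.28 when Nons day 7 was left out. Its trend was called, at -1.72 ± 0.20 (SE) on the log2 scale per day (limma, adjusted p = 0.00149, 95% interval -2.16 to -1.29). It was -1.64 per day without day 6 (adjusted p = 0.00646) and -1.78 without day 7 (adjusted p = 0.0117). Together with Crabp2, 2 of the 8 tested genes had a knockdown difference that changed with day, 1 in each direction, where 4.54% of all genes tested did. Both calls were made under each of the 22 alternative settings in which the trend was fitted. It was not fitted without day as a factor or with 1 hairpin alone beside Nons.

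**Figure D3:**
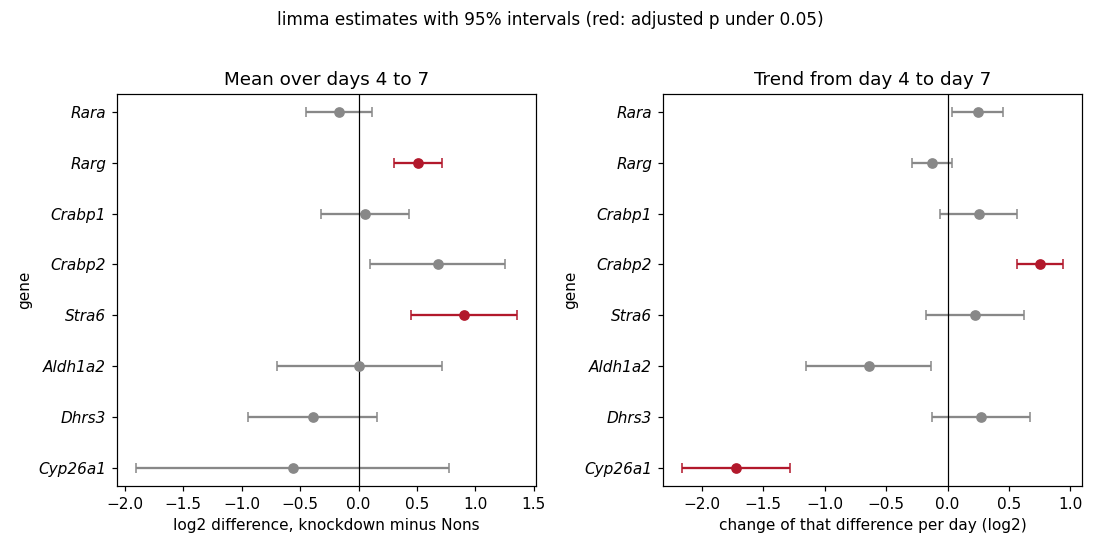
limma estimates (points) with 95% intervals (bars) for the 8 tested genes, as the log2 difference of knockdown from Nons averaged over days 4 to 7 (left) and the change of that difference per day (right), red where the adjusted p was under 0.05. Rarg and Stra6 are red on the left at 0.51 and 0.90, and Crabp2 and Cyp26a1 on the right at 0.75 and -1.72.

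Mesoderm markers moved with Cyp26a1. The summed level of T, Mesp1, Tbx6, Kdr and Pdgfra in Nons was 11.2, 12.9, 36.0 and 221 CPM on days 4 to 7, with none of the 5 at 0 reads. With Smarcc1.6 it was 19.4, 9.34, 5.02 and 24.9 CPM and with Smarcc1.7 it was 15.0, 8.58, 3.14 and 7.52 CPM, with 1 marker at 0 reads in 4 of these 8 libraries. As for Cyp26a1, the hairpin libraries were above Nons on day 4 and below it on days 6 and 7, but they were below it on day 5 too. On day 4 most of the excess was Kdr, a receptor of vascular mesoderm, with 5.60 CPM in Nons against 14.1 and 9.56 CPM. On day 7 most of the deficit was T, the brachyury gene of the primitive streak, with 180 CPM in Nons against 18.2 and 4.12 CPM. Of the 3 markers that could be tested, T and Kdr had a called trend, at -1.695 and -1.463 per day (limma, adjusted p = 0.0116 and 0.0105), and at -1.52 and -1.62 without day 6 (adjusted p = 0.0235 and 0.00264). The part of mesoderm cells in the level of Cyp26a1 was not tested.

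**Figure D4:**
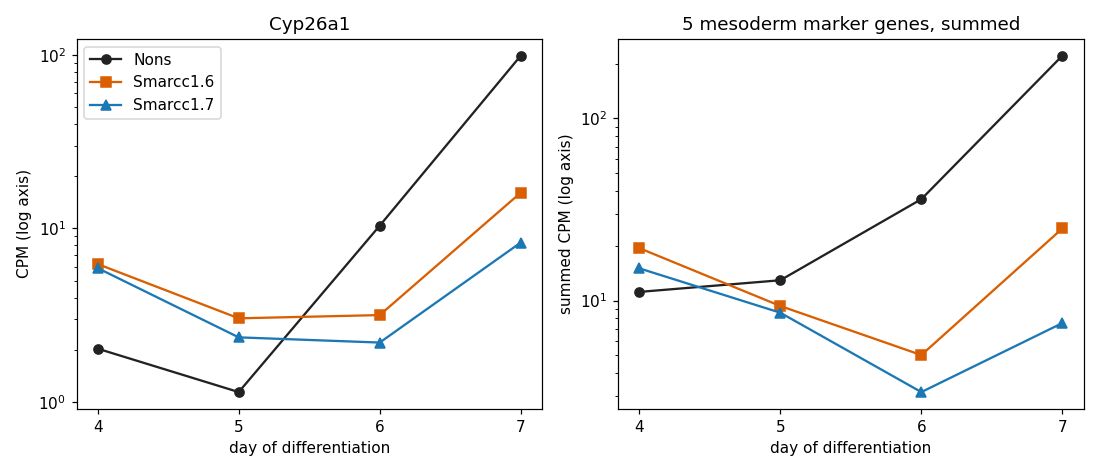
Level of Cyp26a1 (left, CPM on a log axis) and summed level of 5 mesoderm markers (right, CPM on a log axis) by day of differentiation in Nons, Smarcc1.6 and Smarcc1.7, 1 library per point. On day 7 Nons reaches 98.7 CPM for Cyp26a1 and 221 CPM for the markers, above both hairpins in each panel.

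Pluripotency markers were higher in the knockdown, as Rarg and Stra6 were, though not in every library. Of 7 such markers 5 were called higher, where 11.6% of all genes were called in either direction, with Klf4 at 1.40, Zfp42 at 1.11 and Esrrb at 1.00 on the log2 scale (limma, adjusted p = 0.0128, 0.00250 and 0.00475, and 0.0245, 0.0245 and 0.0291 without day 6). Their summed level ran from 1089 to 1740 CPM in Nons, from 1368 to 2537 with Smarcc1.6 and from 1097 to 2108 with Smarcc1.7. On day 6 it was 1740 CPM in Nons against 1730 with Smarcc1.6. Neural and mesenchyme markers also included calls, 2 of 4 tested higher in each list, with summed levels of 68.3 to 331 and 8.79 to 212 CPM in Nons against 78.8 to 398 and 19.5 to 338 CPM with the hairpins. Sox1, among the neural ones, passed the minimum level only through the knockdown libraries. Of 4 endoderm markers tested 1 was lower. Foxa2 and Sox7 of that list were under the minimum level. Foxa2 averaged 0.59 log2 CPM in Nons against -0.98 with Smarcc1.6 and -1.61 with Smarcc1.7. Sox7 went the other way, at -0.53 in Nons against 0.29 and -0.06. The part of undifferentiated, neural or mesenchyme cells in the levels of Rarg and Stra6 was not tested. Day0 can be set beside day 6, which shared its read assignment. For Rarg it stood at 5.21, below the day 6 levels of 5.73 in Nons, 6.23 with Smarcc1.6 and 6.08 with Smarcc1.7. For Stra6 it stood at 0.73, above the day 6 levels of -0.89, -0.17 and 0.40 in the same order.

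Taken 1 at a time, the hairpins gave fewer calls. With Smarcc1.6, Rarg alone of the 8 genes was called, at 0.57 ± 0.11 (SE, limma, adjusted p = 0.0108), where 9.3% of genes tested were called. It was no longer called without day 5 or without day 6. For Smarcc1.7 the count was 0, where 2.45% of genes were called. An unadjusted limma p under 0.05 was reached by 2 of the 8 and by 2838 of all 13406. The 2 were Rarg at 0.44 (adjusted p = 0.0574) and Stra6 at 0.96 (adjusted p = 0.0679). With Smarcc1.6 it was reached by 4 of the 8 and by 3369 of all 13406. Stra6 with Smarcc1.6 stood at 0.84 (adjusted p = 0.0594). No gene differed between the hairpins by limma, among these 8 or among all tested (0%), although 530 of all genes tested and 0 of these 8 had an unadjusted p under 0.05. The interval of the difference of Smarcc1.6 from Smarcc1.7 was -0.11 to 0.37 for Rarg, -0.67 to 0.43 for Stra6 and -1.13 to 2.09 for Cyp26a1, and the last interval allows a difference of several-fold.

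The course of differentiation was compared over the 3 groups together. From day 4 to day 5 Rarg fell by 1.07 ± 0.12 (SE) and Stra6 fell by 0.89 ± 0.29 on the log2 scale (limma, adjusted p = 0.000298 and 0.0368), 2 of 8 genes where 31% of all tested were called. The fall of Stra6 was called in 10 of 18 alternative settings, that of Rarg in 19 of 19. From day 5 to day 7 Rarg fell by a further 1.01 ± 0.12 and Rara fell by 0.79 ± 0.18 (adjusted p = 4.73e-05 and 0.00257). Over the same interval Dhrs3 rose by 1.65 ± 0.30 and Cyp26a1 by 3.55 ± 0.84 (adjusted p = 0.000593 and 0.00342). That made 4 of 8 genes, where 65.9% of all tested were called. Counts out of 8 are too small to set these genes apart from all genes in either comparison. From day 5 to day 7 Rara and Rarg were lower, and Dhrs3 and Cyp26a1 higher, in each of the 3 groups. Set against Day0, and within the libraries that shared its read assignment, Nons on day 6 was 5.53 higher for Cyp26a1 and 2.77 higher for Crabp2 on the log2 scale, and 2.33, 2.15 and 1.62 lower for Rarb, Aldh1a2 and Stra6. Day0 was a single library and these are values without a test.

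Corrected for gene length, the order of mean level over the 13 libraries was Rarg at 4.18 log2 CPM per kilobase, Crabp2 at 3.86, Rara at 1.99, Crabp1 at 1.85, Cyp26a1 at 1.09, Dhrs3 at 0.69, Aldh1a2 at -0.31, Stra6 at -1.89 and Rarb at -3.41. Rara and Crabp1 differed by less than the SD of either over libraries, which was 0.49 and 0.50. The receptor and the binding protein at the head of the order were thus far above Dhrs3, Aldh1a2 and Stra6.

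The wider pathway was followed in 37 further genes, of which 22 were expressed well enough to be tested. For the knockdown 3 of these were called higher and 2 lower, where 11.6% of all genes tested were called. Without day 6 0 of 23 tested were called by limma, and 8 had an unadjusted p under 0.05. Stra8, a retinoic acid target best known from germ cells entering meiosis, stood at 1.77, 0.55, -2.33 and -4.89 log2 CPM in Nons on days 4 to 7, the last from 1 read. With Smarcc1.6 it stood at 1.71, 3.28, 2.75 and 1.09 and with Smarcc1.7 at 2.15, 2.59, 1.35 and -1.02. It was above Nons in both hairpins from day 5 on. Its mean in Nons, -1.22, was under the minimum level, which it passed through the knockdown libraries. Among all 25965 genes without a minimum, its difference was 2.96 ± 0.59 (SE, limma, adjusted p = 0.00701). With the minimum but without day 6 it was 2.49 (adjusted p = 0.109). Day0, at 5.09, was higher than all of them.

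Of the receptor coactivators, Ncoa1 was 0.64 ± 0.15 (SE) higher and Ncoa3 0.51 ± 0.14 higher in the knockdown (limma, adjusted p = 0.0205 and 0.0350), 2 of 6 coregulators. Rxrg, which encodes the RXR form with the most restricted expression, was the only one of 5 partner and alternative receptor genes called. It stood at 7.62, 7.99, 4.20 and 0.708 CPM in Nons on days 4 to 7 and was 0.74 ± 0.20 (SE) lower in the knockdown (adjusted p = 0.0375). Rdh11, a retinal reductase, was 0.32 ± 0.08 lower (adjusted p = 0.0293), 1 of 6 tested genes for carriers and enzymes of retinol and retinal. Without day 6 their adjusted p-values were 0.0734 for Ncoa1, 0.0654 for Ncoa3, 0.134 for Rxrg and 0.145 for Rdh11. With Smarcc1.6 alone Ncoa1 and Ncoa3 were called higher and Rdh11 lower, where 9.3% of all genes were called. Stra8 was called higher too, but it passed the minimum level only through the knockdown libraries. Without day 6 the comparison of Smarcc1.6 called 0 of 23 genes by limma. With Smarcc1.7 alone 0 of 22 were called by limma, where 2.45% of all genes were called, and 7 of the 22 and 2838 of all 13406 had an unadjusted p under 0.05.

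The knockdown difference changed with day for 3 of the 22 genes, where 4.54% of all genes tested were called, and for 2 of 23 without day 6. Stra8 had a trend of 1.63 ± 0.28 (SE) per day among all 25965 genes without a minimum level (limma, adjusted p = 0.00277). Rdh10, which oxidises retinol to retinal, had a trend of -0.48 ± 0.09 per day (adjusted p = 0.0153, and 0.0346 without day 6). Adh7, an alcohol dehydrogenase picked out after its values were seen, had -0.96 ± 0.24 per day (adjusted p = 0.0472, and 0.0726 without day 6). From day 5 to day 7 over the 3 groups, 9 of the 22 rose and 7 fell, where 65.9% of all genes tested were called. Tgm2, a transglutaminase induced by retinoic acid, rose by 4.47 ± 0.38 (SE, limma, adjusted p = 4.38e-06). Rxrg fell by 3.80 ± 0.28 and Stra8 fell by 3.75 ± 0.86 (adjusted p = 2e-06 and 0.00286). All 5 coregulators called fell, among them Ncoa3 by 1.23, Ncoa1 by 1.09, Ncor1 by 0.98 and Ncoa2 by 0.48. Rdh14, Rdh11 and Rdh10 rose by 0.94, 0.82 and 0.70, and Ppard, Rxrb and Fabp5 by 0.67, 0.40 and 0.38.

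The other clearance enzymes, Cyp26b1 and Cyp26c1, did not reach the minimum level, with at most 106 and 27 reads in any library, so Cyp26a1 was the 1 CYP26 gene that could be tested. Cdx1, picked out after its values were seen, had 1415 reads in Day0 (5.99 log2 CPM) and 3 to 108 reads later. Its mean over all libraries of days 4 to 7 was also below the minimum. In Nons alone the mean was 0.27 log2 CPM, above the minimum, against -0.27 with Smarcc1.6 and -0.91 with Smarcc1.7. Cdx1 was thus left out through the knockdown libraries.

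For the 3 genes with the largest SD over libraries, the most similar profiles among the 13406 tested genes were sought by Pearson correlation over all 13 libraries, as a description. The nearest to Cyp26a1 were S100a10 (r = 0.95), Pstpip1 (0.94) and Synj2 (0.92). The nearest to Crabp2 were Zfp467, Cnih2 and Dnaic1, each at 0.96. The nearest to Rarb were Nhlrc2 (0.89), Tuba4a (0.85) and Rundc3a (0.85). The points share culture, day and depth, and for Rarb rest on few reads. Without Day0 and day 6 the 9 correlations lay between 0.85 and 0.93.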

How the data were processed

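RNA-seq reads were aligned by the authors to mm10; the labels name TopHat2 2.0.12, and the paper's methods name tophat or hisat2 without assigning libraries. The authors counted reads over genes with Seqmonk and deposited log2 CPM. Whether counting used strand is not given in the sources used here. The deposited log2 values were whole multiples of 1 read in 100% of low values (under 100 reads, tolerance 0.02 reads), which gave the depth; 0 reads were written as 0.9. Intervals and floors cover counting error only.

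The 13406 genes whose log2 CPM averaged 0 or more in the 12 libraries from day 4 on were fitted with limma 3.58.1 in R 4.3.3 (eBayes with trend), with group and day as factors; p-values were Benjamini-Hochberg adjusted over these genes, threshold 0.05. Knockdown pooled both hairpins. The trend was the product of knockdown and day number. Day0 entered no fit. Fits were tested on simulated data. Alternatives were other filters, log2(CPM + 1), centred libraries, no trend, voom weights, no block, 1 hairpin and omitted libraries or days.

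The members and lists were chosen with earlier results of these data known. Named were the 9 genes, Smarcc1, other pathway genes called for knockdown, a hairpin or day 7 against day 5 (up to 4 per list and comparison), up to 3 markers of a list, and the nearest profiles; 1 gene that this rule takes is not reported here. Promoters came from RefSeq and lengths from GENCODE M21. Python 3.11.15, numpy 2.4.6, pandas 2.3.3 and matplotlib 3.10.9 were used.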

Additional observations from a re-analysis of the deposited data

Results flagged for a closer look

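Over the 9 genes, 45 sets of 4 values (levels in each group, and differences of each hairpin from Nons) were screened for a day far from the others, which chance flags in about 1 of 20 sets, or 2.25 here; 3 were flagged. Rarb in Nons was at -2.89 log2 CPM on day 7, against -1.05 to -0.73 on the other days, from 4 reads. The difference of Smarcc1.6 from Nons for Rarb was accordingly 2.30 on day 7, against -0.68 to -0.26 on days 4 to 6. The difference of Smarcc1.7 from Nons for Crabp1 was -0.66 on day 4, against 0.26 to 0.28 on days 5 to 7. The knockdown difference changed with day, by the test of the trend itself, for Crabp2 (0.75 per day) and Cyp26a1 (-1.72 per day).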

How the results depend on the processing

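The called trends of Crabp2 and Cyp26a1 were called in all 22 alternatives in which the trend was fitted. It was not fitted without the replicate block of day or with either hairpin alone beside Nons. The 2 calls for knockdown became 1 with a minimum mean log2 CPM of 2, which leaves Stra6 out, 0 without the replicate block of day, 0 with either hairpin alone beside Nons, and 0 to 3 when a library or day was left out. For Smarcc1.6 the 1 call became 2 without the variance trend, 0 without the block and 0 to 2 with a library or day left out. For Smarcc1.7 the count of 0 became 1 with no filter, 1 with centred libraries and 0 to 2 with a library or day left out. For day 5 against day 4 the 2 calls became 1 with no filter and 1 with the higher filter, and 1 to 3 with a library or day 6 left out. Without the block, which puts the change over days into the error, 4 of all genes were called for knockdown in place of 1561. Other counts over all genes that moved were 69 and 0 with Smarcc1.6 or Smarcc1.7 alone for knockdown, 188 (higher filter) and 145 (no variance trend) against 329 for Smarcc1.7, 400 against 608 for the trend with day without the variance trend, and 2 against 0 between hairpins with no filter. Leaving out a library or day gave 289 to 2001 calls for knockdown, 1 to 1052 for Smarcc1.7 and 289 to 889 for the trend.

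Signs that turned belonged to differences that passed no test. With libraries or days left out, knockdown differences ran from -0.26 to 0.017 for Rara, from -0.055 to 0.28 for Crabp1, from -0.43 to 0.40 for Aldh1a2 (-0.0013 on the log2(CPM + 1) scale) and from -1.28 to 0.28 for Cyp26a1, and trends ran from -0.050 to 0.50 for Crabp1 and from -0.26 to 0.79 for Dhrs3. Rarg ran from 0.41 to 0.60 and Stra6 from 0.77 to 0.99, and Stra6 was 0.51 on the log2(CPM + 1) scale, which shrinks low genes (adjusted p = 0.0187). The cause of these shifts was not tested. Depth limited Rarb most, with 3 to 54 reads per library. Cyp26a1 had 5 reads in Day0, and Stra6 had 19 in its lowest library.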
